A study of Homo sapiens with 9 samples.

Results

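Genes of DNA replication were followed across 9 arrays of LNCaP cells, an established line from a human prostate cancer that carries the androgen receptor and grows with androgen. The set has 46 genes, taken as those of the listed replication genes that the array annotation names by a single symbol, out of 19775 genes measured, and each gene is read from the brightest of its probe sets by its mean over 9 arrays. All 46 passed the filter that kept 11865 genes with higher mean levels for testing. The filter used the mean over all 9 arrays, so a gene low on some arrays could be kept through higher levels on others. The members fall into 5 origin licensing genes, 12 genes of the replicative helicase, 2 of the firing kinase, 8 of the polymerases, 6 of the clamp and its loaders, 2 that join Okazaki fragments, 3 of the single-strand binding protein, 3 that protect the fork, and 5 that control the others or rebuild chromatin. Each array has 1 sample, and values are log2 levels, so that a difference of 1 is a doubling.

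The inhibitor series has 5 arrays, each of LNCaP cells under a different condition. Steady-state cells were growing in 10% fetal bovine serum. Others were pretreated for 2 h with 100 µM etoposide or with 100 µM merbarone, then given 100 nM dihydrotestosterone (DHT) for 16 h. Another array had cells given DHT alone. The control of the series had deprived cells with no agent in their label (the deprived control). All of these but the steady-state cells had first been kept for 48 h in medium with 5% charcoal-stripped serum, which is depleted of androgen and other steroids. Etoposide holds topoisomerase II on the DNA it has cut, and merbarone blocks the enzyme's catalytic cycle. For the shRNA series, a GFP vector was put into the cells that encoded an shRNA against TOP2B (sh-TOP2B) or a control shRNA (sh-control). These cells were deprived in the same way, given 100 nM DHT for 16 h or vehicle, and sorted for GFP, which gave 4 arrays. TOP2B encodes topoisomerase II beta. Steady state and deprived control differ in the amount of serum, in its stripping and in the time of deprivation, and these cannot be told apart. In bulk RNA, fewer cells in S phase and less of a transcript per cell cannot be told apart either.

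Eukaryotic chromosomes are copied once per cell cycle. In G1 the origin recognition complex, CDC6 and CDT1 load the MCM2-7 ring onto origins, which licenses them. In S phase the kinase of CDC7 and DBF4, together with cyclin-dependent kinases, brings CDC45 and the GINS complex to the ring, and the active helicase unwinds DNA for the polymerases, which the PCNA clamp holds to the template. Many of these genes are targets of the E2F transcription factors, which the retinoblastoma protein holds in check in cells that do not divide, and in prostate cancer cells androgen is known to promote passage through G1.

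Because the members were mostly high or low together, their promoters are shown first, taken from RefSeq (GRCh38.p14) as 250 bases before to 50 bases after the start of the gene. The table held a promoter for 39 of the 46 members. Each promoter was searched on both strands for 4 words of the E2F site, TTTGGCGC, TTTGCCGC, TTTCGCGC and TTTCCCGC. At least 1 of the words stood in 20 of the 39 promoters (51.3%), against 3.33% of all 27305 promoters. The CCAAT box, searched on both strands as well, stood in 23 of the 39 (59%), against 35.7% of all promoters, and the p53 decamer stood in 4 (10.3%), against 6.54%. A match is a description of letters and not a measured site.

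Of 7 promoters printed here, those of DTL, GINS1 and CDC6 belong to members with wide ranges over the arrays, MCM6 had the most matches, PCNA and GINS1 passed the test with etoposide, and CDC7 and DBF4, without a match, code for both subunits of 1 kinase and moved apart with merbarone. The capitals mark the E2F words, and all other bases are in lower case. The positions are chr1:212035498-212035797, plus strand for DTL, chr20:25407423-25407722, plus strand for GINS1, chr17:40287629-40287928, plus strand for CDC6, chr2:135876394-135876693, minus strand for MCM6, chr20:5126573-5126872, minus strand for PCNA, chr1:91500601-91500900, plus strand for CDC7 and chr7:87876243-87876542, plus strand for DBF4.
DTL: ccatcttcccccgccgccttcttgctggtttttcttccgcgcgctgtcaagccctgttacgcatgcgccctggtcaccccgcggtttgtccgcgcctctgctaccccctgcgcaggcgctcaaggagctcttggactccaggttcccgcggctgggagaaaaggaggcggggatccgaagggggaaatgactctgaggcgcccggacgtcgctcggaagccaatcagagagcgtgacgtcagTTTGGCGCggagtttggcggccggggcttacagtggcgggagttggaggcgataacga
GINS1: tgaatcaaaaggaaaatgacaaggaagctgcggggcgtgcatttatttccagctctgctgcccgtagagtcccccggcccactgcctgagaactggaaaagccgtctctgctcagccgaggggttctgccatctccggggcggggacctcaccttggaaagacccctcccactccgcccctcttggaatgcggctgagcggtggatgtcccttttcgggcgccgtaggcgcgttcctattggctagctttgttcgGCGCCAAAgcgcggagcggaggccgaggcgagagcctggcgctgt
CDC6: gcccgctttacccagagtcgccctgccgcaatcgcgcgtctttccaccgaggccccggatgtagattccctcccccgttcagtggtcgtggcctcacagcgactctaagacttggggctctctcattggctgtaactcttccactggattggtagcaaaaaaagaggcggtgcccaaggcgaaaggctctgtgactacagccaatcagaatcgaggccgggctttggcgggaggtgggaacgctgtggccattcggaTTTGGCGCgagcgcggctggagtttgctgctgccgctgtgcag
MCM6: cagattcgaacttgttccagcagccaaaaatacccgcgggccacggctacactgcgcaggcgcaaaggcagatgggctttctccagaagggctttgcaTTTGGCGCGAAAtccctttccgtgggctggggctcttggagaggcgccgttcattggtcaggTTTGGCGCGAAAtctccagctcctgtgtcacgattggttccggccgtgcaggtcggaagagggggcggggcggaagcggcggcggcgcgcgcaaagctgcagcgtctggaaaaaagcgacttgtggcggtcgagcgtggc
PCNA: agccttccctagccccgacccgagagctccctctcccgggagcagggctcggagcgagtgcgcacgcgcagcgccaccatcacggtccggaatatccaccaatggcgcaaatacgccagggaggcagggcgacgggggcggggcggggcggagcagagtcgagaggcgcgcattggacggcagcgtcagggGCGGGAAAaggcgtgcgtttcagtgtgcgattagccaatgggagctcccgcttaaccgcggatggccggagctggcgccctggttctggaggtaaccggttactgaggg
CDC7: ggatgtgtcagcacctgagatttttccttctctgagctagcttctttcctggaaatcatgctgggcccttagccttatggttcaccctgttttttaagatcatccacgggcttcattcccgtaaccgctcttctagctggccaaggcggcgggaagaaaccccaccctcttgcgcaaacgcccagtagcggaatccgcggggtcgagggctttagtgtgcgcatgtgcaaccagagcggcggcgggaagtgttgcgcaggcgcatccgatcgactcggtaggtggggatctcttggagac
DBF4: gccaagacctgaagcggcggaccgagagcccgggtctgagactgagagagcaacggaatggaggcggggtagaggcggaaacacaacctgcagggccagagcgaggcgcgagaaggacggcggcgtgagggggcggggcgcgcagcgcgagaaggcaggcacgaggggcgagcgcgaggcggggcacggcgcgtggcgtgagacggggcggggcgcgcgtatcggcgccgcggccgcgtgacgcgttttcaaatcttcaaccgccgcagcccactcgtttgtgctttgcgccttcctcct
In MCM6, the first of each pair of words overlaps the second, which lies on the other strand, by 4 bases, so its 4 words form 2 sites.

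In DTL the word lay at -8 to -1 from the gene start, in CDC6 at 8 to 15, in GINS1 at 6 to 13 on the other strand, and in PCNA at -59 to -52 on the other strand. MCM2, MCM3, MCM7 and E2F1 had 2 words each, which in MCM2 overlap. RPA1, FEN1, RFC2, RFC4, RFC5 and TIMELESS were among the 19 with none. The 20 members with a word had a median steady state minus control difference of 1.95, with 17 of them past the test, and the 19 without one had a median of 1.85, also with 17 past it. These are counts with no test of a difference.

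**Figure D1:**
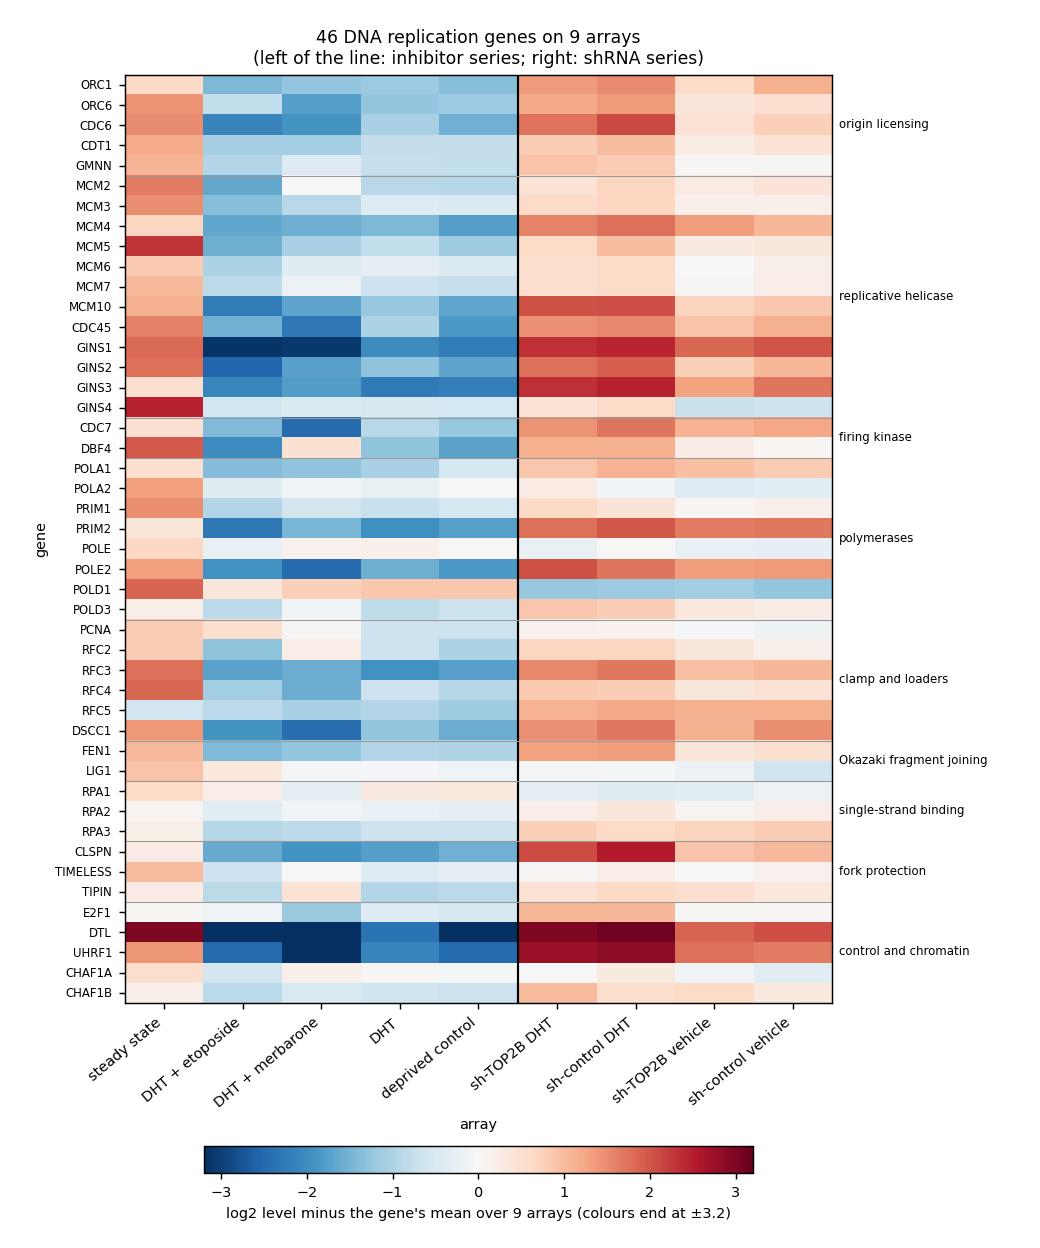
Levels of the 46 members on the 9 arrays, each row given as the log2 level minus the gene's mean, with rows grouped by role and the inhibitor series left of the line. The steady-state column is mostly red, the 4 deprived columns of the inhibitor series mostly blue, and the 4 columns of the shRNA series mostly red or pale, with the DHT columns deeper than the vehicle columns.

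Across the arrays the members separated into a low state and a high one. Their median level was 9.57 in steady state, 6.98 with etoposide, 6.86 with merbarone, 7.08 with DHT and 7.06 in the deprived control. In the shRNA series the median was 9.39 with DHT and 8.94 with vehicle in sh-TOP2B cells, and 9.59 with DHT and 9.01 with vehicle in sh-control cells. Levels under the array's median, which was 5.61 to 5.72, are called dim: of the members, 0 were dim in steady state, 12 with etoposide, 9 with merbarone, 7 with DHT and 9 in the deprived control, and 1 or 2 on each shRNA array. Where 1 of 2 levels was dim, a difference is given as a bound with that level raised to the array median, and where both were dim no size is given. The adjusted p printed beside a bound was computed on the difference before raising, which is larger, so it does not test the bound.

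The labelled cell type was checked on 7 luminal prostate markers: KLK3, HOXB13, FOLH1, SLC45A3, KRT8, KRT18 and EPCAM were above the array median on every array, except KLK3 on 1. The leukocyte gene PTPRC, the fibroblast gene DCN and the endothelial gene CDH5 were dim on all 9 arrays, KRT5 on 8, and CD3E and PECAM1 on 4, while COL1A1 read 8.05 to 9.63 and was dim on none. The difference between 3' and 5' probes of beta-actin, a sign of RNA quality, was 0.38 to 0.70 in the inhibitor series and 2.38 to 3.09 in the shRNA series, so the series differ in this measure as well as in transfection and sorting. TOP2B read 10.09 with vehicle and 10.01 with DHT in sh-TOP2B cells, against 10.54 with vehicle and 10.87 with DHT in sh-control cells, a difference of -0.45 in the vehicle pair and -0.86 in the DHT pair (limma adjusted p = 0.0934 over both). The targeted gene itself therefore did not pass, though it was lower in both pairs.

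The first question was how the replication genes of deprived cells compare with those of cells in full serum. All 46 members were higher in steady state than in the deprived control, as were 6405 of 11865 genes. Of the members 39 passed the test, all of them higher, where 28.1% of all genes passed in either direction and 15.7% passed as higher. The test set the difference of the 2 arrays against the spread of 3 pairs with and without DHT in a limma fit across all genes, passing at a Benjamini-Hochberg adjusted p under 0.05, because neither array has a replicate. Of the 39 members that passed, 8 had a dim control level, and their p-values are for the difference before raising. The median difference of the members was 1.95, and that of all genes tested was 0.04. A difference of at least 1 was seen in 37 of 46 members, against 6.45% of genes, and the steady-state level was above all 4 deprived arrays of the inhibitor series in 45 of 46 members, against 32.2% of genes. The member outside this last count was TIPIN, which was higher with merbarone. Against DHT the picture was much alike, with 39 of 46 members higher past the test (24.8% of genes passed, 13.5% as higher) and a median of 1.93, and the 2 comparisons share the steady-state array.

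**Figure D2:**
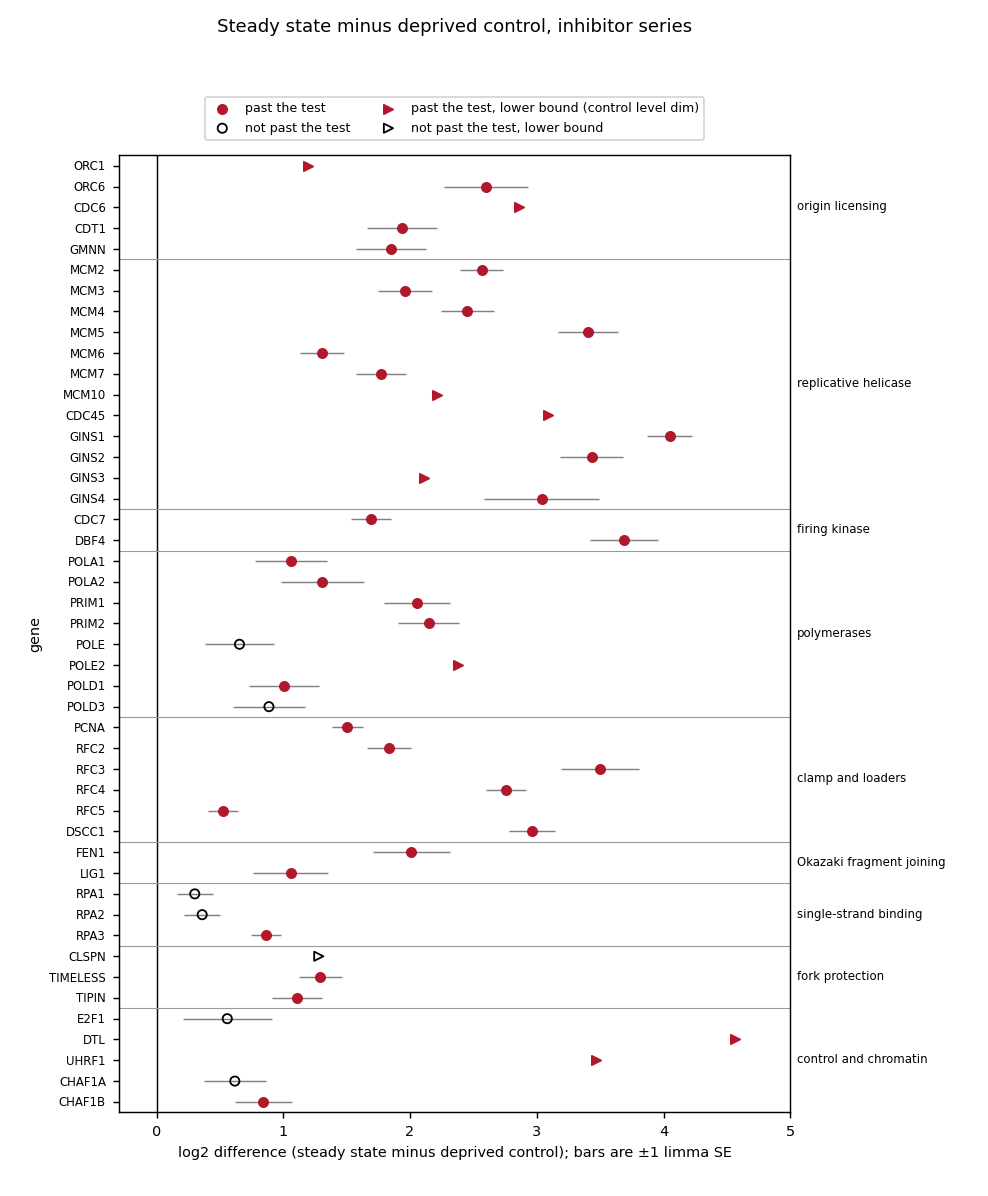
Steady state minus deprived control for each of the 46 members, in log2 with bars of 1 limma SE; triangles are lower bounds, filled symbols passed the test, and rows are grouped by role. The helicase, firing kinase and clamp loader genes lie mostly above 1.5, and the 3 single-strand binding genes lie below 0.9.

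Origin licensing genes were higher in steady state in 5 of 5 cases, with a median difference of 1.99. CDC6, the ATPase that recruits the MCM ring, stood at 8.52 in steady state, 4.90 with etoposide, 5.09 with merbarone, 5.97 with DHT and 5.48 in the deprived control. CDC6 levels with DHT were 8.76 and 9.12 in sh-TOP2B and sh-control cells, against 7.47 and 7.77 with vehicle. It was at least 2.86 higher in steady state than in the deprived control (adjusted p = 0.00139), and both DHT arrays of the shRNA series lay above steady state. ORC6, a subunit of the origin recognition complex, stood at 9.88 in steady state, 7.66 with etoposide, 6.69 with merbarone, 7.21 with DHT and 7.28 in the deprived control. ORC6 levels with DHT were 9.66 and 9.81 in sh-TOP2B and sh-control cells, against 8.84 and 8.97 with vehicle. On the deprived arrays of the inhibitor series ORC6 stayed below all of its levels in the shRNA series. Levels of CDT1, the partner of CDC6 in loading, were 8.55 in steady state, 6.30 with etoposide, 6.28 with merbarone, 6.60 with DHT and 6.61 in the deprived control. CDT1 levels with DHT were 8.15 and 8.35 in sh-TOP2B and sh-control cells, against 7.60 and 7.80 with vehicle. ORC6 was higher in steady state by 2.60 ± 0.33 (SE, adjusted p = 0.00219) and CDT1 by 1.94 ± 0.28 (adjusted p = 0.00323). GMNN, which codes for geminin, the inhibitor of CDT1, had levels of 11.74 in steady state, 9.73 with etoposide, 10.26 with merbarone, 9.93 with DHT and 9.89 in the deprived control. GMNN levels with DHT were 11.58 and 11.47 in sh-TOP2B and sh-control cells, against 10.70 and 10.69 with vehicle. GMNN was 1.85 ± 0.28 higher in steady state (adjusted p = 0.004). ORC1, the largest origin recognition subunit, read 6.85 in steady state, 4.78 with etoposide, 4.97 with merbarone, 5.06 with DHT and 4.86 in the deprived control. ORC1 levels with DHT were 7.59 and 7.74 in sh-TOP2B and sh-control cells, against 6.85 and 7.37 with vehicle. It was dim on the 4 deprived arrays of the inhibitor series, and its steady-state level was at least 1.20 above the control (adjusted p = 0.00437).

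The replicative helicase had a median of 2.76, or 2.51 once dim levels were raised, and 12 of its 12 genes passed as higher in steady state. GINS1, a subunit of the GINS complex, read 10.70 in steady state, 5.75 with etoposide, 5.79 with merbarone, 6.87 with DHT and 6.65 in the deprived control. GINS1 levels with DHT were 11.21 and 11.33 in sh-TOP2B and sh-control cells, against 10.72 and 10.90 with vehicle. The steady-state level lay 4.05 ± 0.18 above the control (adjusted p = 3.81e-05), which is 16.5-fold, and all 4 shRNA arrays lay above it. GINS2 read 9.88 in steady state, 5.60 with etoposide, 6.39 with merbarone, 6.84 with DHT and 6.45 in the deprived control. GINS2 levels with DHT were 9.89 and 10.03 in sh-TOP2B and sh-control cells, against 8.90 and 9.19 with vehicle. GINS2 was low on the deprived arrays of the inhibitor series and on no others. GINS3 read 7.77 in steady state, 5.17 with etoposide, 5.47 with merbarone, 5.00 with DHT and 5.07 in the deprived control. GINS3 levels with DHT were 9.59 and 9.73 in sh-TOP2B and sh-control cells, against 8.55 and 8.96 with vehicle. GINS3 was higher on all 4 shRNA arrays than in steady state. GINS4 read 8.79 in steady state, 5.73 with etoposide, 5.86 with merbarone, 5.80 with DHT and 5.75 in the deprived control. GINS4 levels with DHT were 6.76 and 6.92 in sh-TOP2B and sh-control cells, against 5.62 and 5.65 with vehicle. Its vehicle levels in the shRNA series were dim and alike to those of the deprived inhibitor series. The differences from the control were 3.43 ± 0.25 for GINS2 (adjusted p = 0.000242), at least 2.11 for GINS3 (adjusted p = 0.00318) and 3.04 ± 0.45 for GINS4 (adjusted p = 0.00389). A second GINS2 probe set gave -0.23 and the third 0.19. CDC45, the third part of the active helicase, read 8.75 in steady state, 5.59 with etoposide, 4.86 with merbarone, 6.13 with DHT and 5.31 in the deprived control. CDC45 levels with DHT were 8.60 and 8.68 in sh-TOP2B and sh-control cells, against 8.04 and 8.27 with vehicle. CDC45 was low on the 4 deprived arrays of the inhibitor series and high on the others. MCM10, which acts at the start of unwinding, read 7.87 in steady state, 4.49 with etoposide, 5.05 with merbarone, 5.52 with DHT and 5.06 in the deprived control. MCM10 levels with DHT were 8.77 and 8.80 in sh-TOP2B and sh-control cells, against 7.43 and 7.60 with vehicle. MCM10 was dim on all 4 of those arrays. For CDC45 and MCM10, steady state was at least 3.09 above the control for CDC45 (adjusted p = 0.000237) and at least 2.21 above it for MCM10 (adjusted p = 0.00202).

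The 6 genes of the MCM ring code for its 6 different subunits and did not move by equal amounts. MCM5 had the largest steady state minus control difference of the 6, 3.40 ± 0.24 (adjusted p = 0.000214), and read 9.48 in steady state, 5.64 with etoposide, 6.16 with merbarone, 6.41 with DHT and 6.07 in the deprived control. MCM5 levels with DHT were 7.81 and 8.19 in sh-TOP2B and sh-control cells, against 7.48 and 7.56 with vehicle. MCM2 read 10.54 in steady state, 7.27 with etoposide, 8.90 with merbarone, 8.03 with DHT and 7.98 in the deprived control. MCM2 levels with DHT were 9.34 and 9.60 in sh-TOP2B and sh-control cells, against 9.16 and 9.31 with vehicle. MCM2 was higher in steady state by 2.56 ± 0.17 (adjusted p = 0.000188). For MCM2 and MCM5 the steady-state level was the highest of the 9. MCM4 read 9.35 in steady state, 6.998 with etoposide, 7.09 with merbarone, 7.23 with DHT and 6.90 in the deprived control. MCM4 levels with DHT were 10.26 and 10.43 in sh-TOP2B and sh-control cells, against 10.01 and 9.74 with vehicle. Here all 4 shRNA arrays were above steady state. MCM3 read 10.13 in steady state, 7.28 with etoposide, 7.74 with merbarone, 8.22 with DHT and 8.17 in the deprived control. MCM3 levels with DHT were 9.25 and 9.33 in sh-TOP2B and sh-control cells, against 8.80 and 8.80 with vehicle. The MCM3 level with etoposide was the lowest of the 9. MCM7 read 10.51 in steady state, 8.63 with etoposide, 9.28 with merbarone, 8.77 with DHT and 8.74 in the deprived control. MCM7 levels with DHT were 10.00 and 10.08 in sh-TOP2B and sh-control cells, against 9.51 and 9.68 with vehicle. MCM3 and MCM7 had their highest level in steady state, with the shRNA arrays between it and the deprived control. MCM6 read 10.75 in steady state, 8.90 with etoposide, 9.52 with merbarone, 9.59 with DHT and 9.44 in the deprived control. MCM6 levels with DHT were 10.44 and 10.51 in sh-TOP2B and sh-control cells, against 9.91 and 10.11 with vehicle. MCM6 had the smallest difference of the 6. Steady state minus control was 2.45 ± 0.21 for MCM4, 1.96 ± 0.22 for MCM3, 1.77 ± 0.20 for MCM7 and 1.30 ± 0.17 for MCM6, with adjusted p-values of 0.000467, 0.00128, 0.00128 and 0.00244 in the same order.

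In the firing kinase, both genes passed as higher in steady state, by 3.69 ± 0.27 for DBF4 (adjusted p = 0.000242) and 1.69 ± 0.16 for CDC7 (adjusted p = 0.000674). DBF4, the regulatory subunit, read 9.74 in steady state, 5.75 with etoposide, 8.26 with merbarone, 6.48 with DHT and 6.05 in the deprived control. DBF4 levels with DHT were 8.90 and 8.90 in sh-TOP2B and sh-control cells, against 7.999 and 7.83 with vehicle. DBF4 was highest in steady state and, within the deprived inhibitor-series arrays, high with merbarone alone. CDC7, the catalytic subunit, read 9.70 in steady state, 7.82 with etoposide, 6.76 with merbarone, 8.34 with DHT and 8.01 in the deprived control. CDC7 levels with DHT were 10.66 and 10.95 in sh-TOP2B and sh-control cells, against 10.34 and 10.47 with vehicle. CDC7 was lowest with merbarone and highest on the shRNA arrays.

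Polymerase genes moved less, with a median steady state minus control difference of 1.18 and 6 of 8 past the test. POLE2, the second subunit of polymerase epsilon, read 8.03 in steady state, 4.79 with etoposide, 4.26 with merbarone, 5.18 with DHT and 4.89 in the deprived control. POLE2 levels with DHT were 8.77 and 8.45 in sh-TOP2B and sh-control cells, against 8.08 and 8.10 with vehicle. POLE2 was dim on the 4 deprived arrays of the inhibitor series. PRIM2, the large primase subunit, read 8.09 in steady state, 5.40 with etoposide, 6.23 with merbarone, 5.73 with DHT and 5.94 in the deprived control. PRIM2 levels with DHT were 9.44 and 9.67 in sh-TOP2B and sh-control cells, against 9.34 and 9.37 with vehicle. PRIM2 was higher on the shRNA arrays than in steady state. PRIM1, the small primase subunit, read 9.67 in steady state, 7.26 with etoposide, 7.59 with merbarone, 7.48 with DHT and 7.61 in the deprived control. PRIM1 levels with DHT were 8.81 and 8.63 in sh-TOP2B and sh-control cells, against 8.25 and 8.35 with vehicle. Steady state lay at least 2.38 above the control for POLE2 (adjusted p = 0.000456), 2.15 ± 0.24 for PRIM2 (adjusted p = 0.00137) and 2.06 ± 0.26 for PRIM1 (adjusted p = 0.00218). POLA1, the catalytic subunit of polymerase alpha, read 8.63 in steady state, 6.73 with etoposide, 6.83 with merbarone, 7.08 with DHT and 7.57 in the deprived control. POLA1 levels with DHT were 9.003 and 9.25 in sh-TOP2B and sh-control cells, against 9.08 and 8.95 with vehicle. POLA1 was above its steady-state level on all shRNA arrays. POLA2, its second subunit, read 8.68 in steady state, 6.99 with etoposide, 7.27 with merbarone, 7.12 with DHT and 7.37 in the deprived control. POLA2 levels with DHT were 7.63 and 7.27 in sh-TOP2B and sh-control cells, against 6.97 and 7.02 with vehicle. Their steady-state differences were 1.06 ± 0.28 (adjusted p = 0.033) and 1.31 ± 0.33 (adjusted p = 0.0269), and POLA2 was alone of the pair in having shRNA vehicle levels below the deprived control. POLD1, the catalytic subunit of polymerase delta, read 7.96 in steady state, 6.46 with etoposide, 6.84 with merbarone, 6.94 with DHT and 6.95 in the deprived control. POLD1 levels with DHT were 4.88 and 4.92 in sh-TOP2B and sh-control cells, against 4.96 and 4.85 with vehicle. It was dim on all 4 shRNA arrays, and steady state was 1.00 ± 0.28 above the control (adjusted p = 0.0373). POLD3 read 8.001 in steady state, 6.97 with etoposide, 7.73 with merbarone, 6.997 with DHT and 7.11 in the deprived control. POLD3 levels with DHT were 8.70 and 8.59 in sh-TOP2B and sh-control cells, against 8.14 and 8.06 with vehicle. POLD3 had a steady-state difference of 0.89 ± 0.28 from the control that did not pass (adjusted p = 0.0602) and 1.00 ± 0.28 from DHT that did (adjusted p = 0.0446). POLE, the catalytic subunit of polymerase epsilon, lay between 5.99 and 6.90 and passed no test.

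In the clamp and its loaders, 6 of 6 genes passed as higher in steady state, with a median of 2.29. PCNA, the sliding clamp, read 12.17 in steady state, 11.86 with etoposide, 11.38 with merbarone, 10.69 with DHT and 10.66 in the deprived control. PCNA levels with DHT were 11.49 and 11.46 in sh-TOP2B and sh-control cells, against 11.28 and 11.18 with vehicle. PCNA was 1.51 ± 0.12 higher in steady state than in the deprived control (adjusted p = 0.000405). Its level with etoposide was close to that in steady state. RFC3 and RFC4 are small subunits of the loader that opens the clamp; RFC3 read 10.51 in steady state, 7.04 with etoposide, 7.16 with merbarone, 6.80 with DHT and 7.01 in the deprived control. RFC3 levels with DHT were 10.28 and 10.45 in sh-TOP2B and sh-control cells, against 9.71 and 9.81 with vehicle. RFC3 moved little among the deprived arrays of the inhibitor series. RFC4 read 11.35 in steady state, 8.39 with etoposide, 7.92 with merbarone, 8.84 with DHT and 8.60 in the deprived control. RFC4 levels with DHT were 10.35 and 10.30 in sh-TOP2B and sh-control cells, against 9.88 and 9.98 with vehicle. Steady state was above the control by 3.50 ± 0.31 for RFC3 (adjusted p = 0.000521) and 2.75 ± 0.16 for RFC4 (adjusted p = 9.85e-05). RFC2, another loader subunit, read 9.71 in steady state, 7.62 with etoposide, 9.12 with merbarone, 8.24 with DHT and 7.88 in the deprived control. RFC2 levels with DHT were 9.58 and 9.59 in sh-TOP2B and sh-control cells, against 9.27 and 9.05 with vehicle. RFC2 was higher in steady state by 1.83 ± 0.17 (adjusted p = 0.00066). RFC5 read 10.63 in steady state, 10.40 with etoposide, 10.20 with merbarone, 10.30 with DHT and 10.11 in the deprived control. RFC5 levels with DHT were 12.35 and 12.46 in sh-TOP2B and sh-control cells, against 12.38 and 12.37 with vehicle. Its steady-state difference, 0.53 ± 0.12 (adjusted p = 0.0179), was the smallest that passed, but the 2 other RFC5 probe sets gave 2.49 and 2.23. DSCC1, part of an alternative loader, read 9.70 in steady state, 6.40 with etoposide, 5.91 with merbarone, 7.09 with DHT and 6.74 in the deprived control. DSCC1 levels with DHT were 9.78 and 10.00 in sh-TOP2B and sh-control cells, against 9.46 and 9.80 with vehicle. DSCC1 was 2.96 ± 0.18 higher in steady state (adjusted p = 0.000116), while a second probe set gave 0.07.

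The genes that finish the lagging strand were both higher in steady state. FEN1, the flap endonuclease, read 10.94 in steady state, 8.49 with etoposide, 8.65 with merbarone, 8.95 with DHT and 8.93 in the deprived control. FEN1 levels with DHT were 11.19 and 11.22 in sh-TOP2B and sh-control cells, against 10.27 and 10.42 with vehicle. FEN1 was higher in steady state by 2.01 ± 0.30 (adjusted p = 0.00399). LIG1, the ligase that seals nicks, read 7.32 in steady state, 6.74 with etoposide, 6.33 with merbarone, 6.33 with DHT and 6.26 in the deprived control. LIG1 levels with DHT were 6.33 and 6.33 in sh-TOP2B and sh-control cells, against 6.20 and 5.76 with vehicle. LIG1 was higher in steady state by 1.06 ± 0.30 (adjusted p = 0.0388). The LIG1 value was exactly the same, 6.33, on 4 arrays. Single-strand binding genes were the flattest role, with a median of 0.36 and 1 of 3 past the test. RPA3 read 11.68 in steady state, 10.57 with etoposide, 10.64 with merbarone, 10.82 with DHT and 10.82 in the deprived control. RPA3 levels with DHT were 12.26 and 12.12 in sh-TOP2B and sh-control cells, against 12.20 and 12.30 with vehicle. RPA3 was 0.86 ± 0.12 higher in steady state than in the deprived control (adjusted p = 0.00275). RPA1 read 11.19 in steady state, 10.77 with etoposide, 10.28 with merbarone, 10.84 with DHT and 10.89 in the deprived control. RPA1 levels with DHT were 10.27 and 10.16 in sh-TOP2B and sh-control cells, against 10.20 and 10.38 with vehicle. The steady-state difference of RPA1 was 0.30 ± 0.14 (adjusted p = 0.17), and that of RPA2, which lay between 9.25 and 9.99 on all arrays, was 0.36 ± 0.14 (adjusted p = 0.113).

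Of the fork protection genes, which stabilise stalled forks and pass on the checkpoint signal, 2 of 3 passed as higher in steady state. CLSPN, which codes for claspin, read 6.94 in steady state, 5.05 with etoposide, 4.76 with merbarone, 4.92 with DHT and 5.13 in the deprived control. CLSPN levels with DHT were 8.75 and 9.22 in sh-TOP2B and sh-control cells, against 7.60 and 7.71 with vehicle. It was dim on the 4 deprived arrays of the inhibitor series, and its steady-state difference of at least 1.28 missed the threshold (adjusted p = 0.0538). TIMELESS read 10.01 in steady state, 8.33 with etoposide, 8.98 with merbarone, 8.59 with DHT and 8.72 in the deprived control. TIMELESS levels with DHT were 9.05 and 9.23 in sh-TOP2B and sh-control cells, against 8.98 and 9.16 with vehicle. TIMELESS was higher in steady state by 1.29 ± 0.17 (adjusted p = 0.0023). TIPIN, its binding partner, read 9.26 in steady state, 8.14 with etoposide, 9.44 with merbarone, 8.07 with DHT and 8.15 in the deprived control. TIPIN levels with DHT were 9.48 and 9.64 in sh-TOP2B and sh-control cells, against 9.54 and 9.33 with vehicle. TIPIN was higher in steady state by 1.11 ± 0.20 (adjusted p = 0.00768). TIMELESS had its highest level in steady state, while TIPIN was higher still with merbarone and on the shRNA arrays.

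Among the control and chromatin genes, 3 of 5 passed as higher in steady state, and the range was wide. DTL, which guides the ubiquitin ligase that removes CDT1 in S phase, read 10.22 in steady state, 3.67 with etoposide, 3.36 with merbarone, 4.85 with DHT and 3.98 in the deprived control. DTL levels with DHT were 10.21 and 10.33 in sh-TOP2B and sh-control cells, against 9.07 and 9.28 with vehicle. The steady-state level was at least 4.56 above the control (adjusted p = 2.84e-05), at least 23.6-fold, the largest bound of the 46, and the gene was dim on the 4 deprived arrays of the inhibitor series and on none of the shRNA series. UHRF1, which keeps DNA methylation on new strands, read 9.12 in steady state, 5.22 with etoposide, 4.38 with merbarone, 5.59 with DHT and 5.22 in the deprived control. UHRF1 levels with DHT were 10.49 and 10.59 in sh-TOP2B and sh-control cells, against 9.47 and 9.38 with vehicle. UHRF1 in steady state was at least 3.47 above the control (adjusted p = 0.000363). E2F1, which codes for a transcription factor of the G1 to S transition, read 7.92 in steady state, 7.75 with etoposide, 6.68 with merbarone, 7.46 with DHT and 7.37 in the deprived control. E2F1 levels with DHT were 8.93 and 8.94 in sh-TOP2B and sh-control cells, against 7.90 and 7.92 with vehicle. Its steady-state difference of 0.56 ± 0.35 did not pass (adjusted p = 0.302), and its vehicle levels in the shRNA series were 7.90 and 7.92, beside 7.92 in steady state. A second E2F1 probe set gave a difference of 1.49. CHAF1B, a subunit of the chromatin assembly factor, read 7.55 in steady state, 6.51 with etoposide, 6.89 with merbarone, 6.75 with DHT and 6.71 in the deprived control. CHAF1B levels with DHT were 8.40 and 7.96 in sh-TOP2B and sh-control cells, against 8.02 and 7.70 with vehicle. CHAF1B was higher in steady state by 0.84 ± 0.23 (adjusted p = 0.0346). CHAF1A, another subunit, lay between 7.92 and 9.07, with 0.62 ± 0.25 (adjusted p = 0.111), while 2 further probe sets gave 1.47 and 1.25.

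Other lists of genes used in the cell cycle were counted beside the members. Of 24 other replisome genes tested, such as further subunits of the polymerases and the origin recognition complex, 15 passed as higher and 1 as lower in steady state than in the deprived control, with a median of 1.06. Of 18 genes of nucleotide synthesis and S phase cyclins, 14 passed as higher and 0 as lower, with a median of 1.80. Of 25 mitosis genes, 25 passed as higher, with a median of 4.49, above that of the replication genes. Of the 38 further probe sets of 23 members, 27 were not dim on both arrays, and 25 of these had the same sign as the probe set used. The exceptions were the GINS2 set at -0.23 and a POLA2 set at 0. Further sets of MCM4 gave 1.26 and 0.01, beside 2.45 in the one used, those of MCM10 gave 6.01 and 4.48, beside 2.81, and a second MCM5 set gave 1.67, beside 3.40.

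The second question was whether DHT moved the replication genes of deprived cells. Over all 3 pairs, 42 of 46 members were higher with DHT than without it, as were 5440 of 11865 genes. The median was 0.35 for the members and -0.02 for all genes. The test was passed by 1 of 46 members, where 0.447% of genes passed in either direction, 0.421% as higher and 0.0253% as lower. That member was DTL (adjusted p = 0.0407), whose differences were 1.14 and 1.05 in the sh-TOP2B and sh-control pairs. It was dim on both arrays of the inhibitor-series pair, so the call rests in part on levels with no measured size. A second DTL probe set gave 1.19 and 1.40 in the sh-TOP2B and sh-control pairs and 0.02 in the inhibitor-series pair. Without the sh-control or the sh-TOP2B pair 0 members passed, and without the inhibitor series 30 did. An unadjusted p under 0.05 was reached by 27 of the 46 members and by 2288 of 11865 genes. The difference was above 0 in all 3 pairs for 30 of 46 members (65.2%), against 18% of genes, and below 0 in all 3 for 0, against 21.9% of genes.

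**Figure D3:**
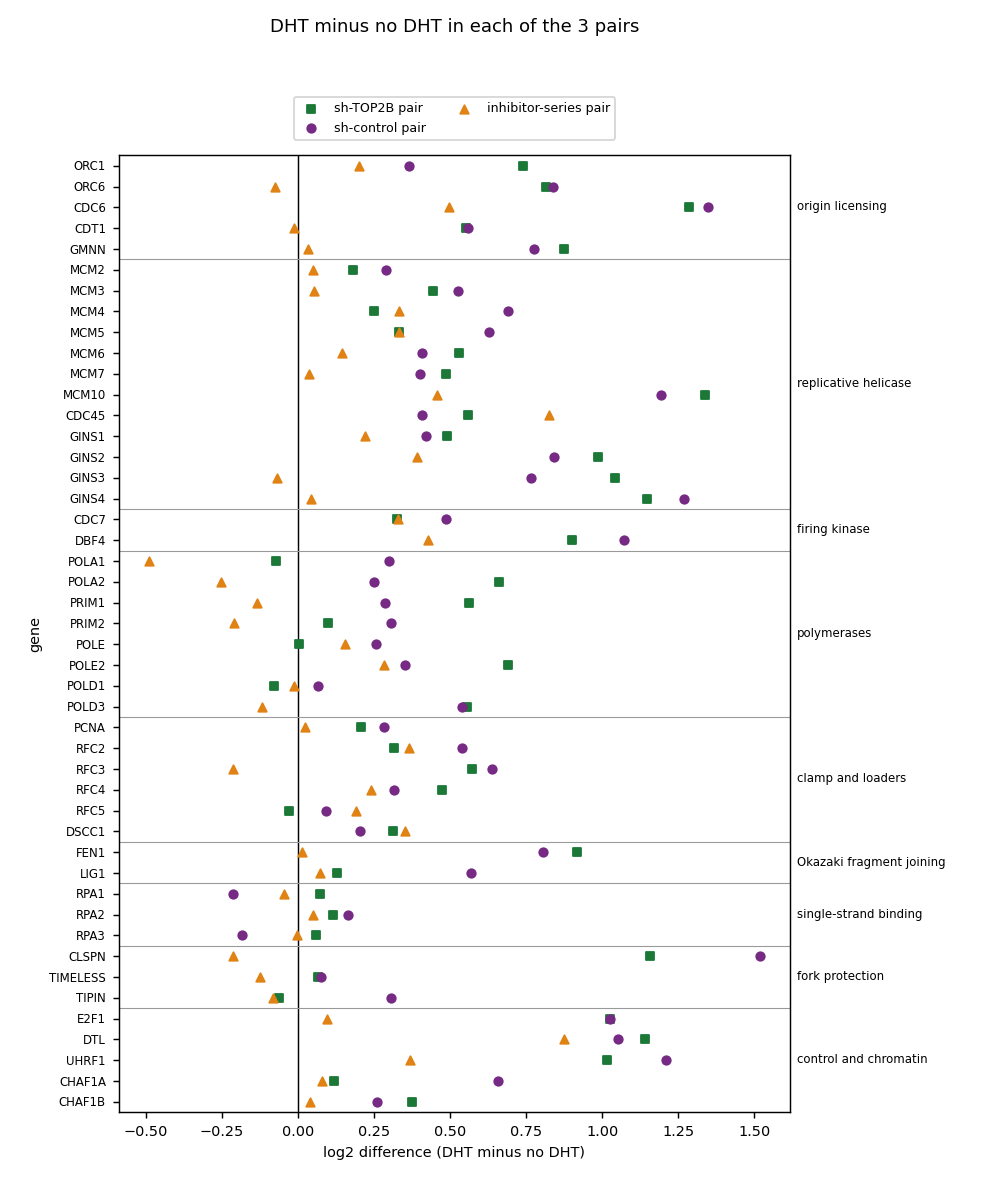
DHT minus no DHT in log2 for each of the 46 members in the sh-TOP2B, sh-control and inhibitor-series pairs, with 1 point for each pair and rows grouped by role. Points of the shRNA pairs lie mostly right of 0 and beyond the inhibitor-series points, and the RPA genes stay near 0 in every pair.

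The pairs differed in size. The members' median was 0.49 in the sh-TOP2B pair, 0.45 in the sh-control pair and 0.05 in the inhibitor-series pair, where the medians of all genes were -0.03, -0.04 and 0.00. In the sh-TOP2B pair 42 members were higher and 4 lower with DHT, in the sh-control pair 44 and 2, and in the inhibitor-series pair 31 and 15. Of all genes, 44.6%, 44.6% and 50.2% were higher with DHT in these pairs, in the same order. A rise of at least 1 was seen in 8 members in the sh-TOP2B pair (1.74% of genes), in 8 in the sh-control pair (2.11%) and in 0 in the inhibitor-series pair (0.244%), and a fall of at least 1 in 0 in that pair (0.0421%). The 3 pairs share no array with each other, but the inhibitor-series pair shares the deprived control with the steady-state comparison.

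With the 4 shRNA arrays alone, fitted as 2 pairs, 30 of 46 members passed as higher with DHT and 0 as lower, where 9.81% of genes passed as higher and 12.3% as lower, and the members' median was 0.46. The spread is here that between 2 pairs. In both pairs the gap between 3' and 5' beta-actin probes was smaller with DHT, 2.38 against 2.69 with vehicle in sh-TOP2B cells and 2.67 against 3.09 with vehicle in sh-control cells, and its part in the result was not tested. Licensing genes passed in 5 of 5 cases, led by CDC6 with 1.32 ± 0.14 (SE, adjusted p = 1.01e-05). GMNN and ORC6, with 0.83 ± 0.07 and 0.83 ± 0.11, followed, then CDT1 and ORC1 with 0.56 ± 0.15 and 0.55 ± 0.18. In the helicase 11 of 12 passed, with MCM10 (1.27 ± 0.14), GINS4 (1.21 ± 0.23), GINS2 (0.91 ± 0.10) and GINS3 (0.91 ± 0.12) ahead of CDC45, GINS1 and the MCM ring genes, which lay between 0.24 and 0.48. MCM2 had that lowest value and did not pass (adjusted p = 0.143). GINS4 was dim on both shRNA vehicle arrays, so its 1.21 is the difference before raising and not a measured size. Both kinase genes passed, DBF4 by 0.99 ± 0.13 (adjusted p = 0.000122) and CDC7 by 0.41 ± 0.08 (adjusted p = 0.00306). Of the polymerase genes 3 of 8 passed, namely POLD3 (0.55 ± 0.13), POLE2 (0.52 ± 0.14) and PRIM1 (0.42 ± 0.13). In the clamp role 4 of 6 passed, RFC3 (0.60 ± 0.09), RFC2 (0.43 ± 0.11), RFC4 (0.39 ± 0.09) and PCNA (0.25 ± 0.07). FEN1 passed with 0.86 ± 0.08 (adjusted p = 3.05e-06), LIG1 did not, and 0 of 3 RPA genes passed. CLSPN had the largest difference of the 46, 1.34 ± 0.14 (adjusted p = 1.39e-05), while TIMELESS and TIPIN did not pass. E2F1 (1.03 ± 0.13), DTL (1.10 ± 0.10) and UHRF1 (1.11 ± 0.10) passed as well, and the 2 chromatin assembly genes did not. In the other lists, 7 of 24 replisome genes passed as higher and 2 as lower, 10 of 18 S phase genes as higher and 0 as lower, and 5 of 25 mitosis genes as higher and 0 as lower. For 37 of 46 members both shRNA DHT levels lay above both shRNA vehicle levels. The share of all genes was not counted here, so this number alone does not set the members apart.

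Whether the DHT response differed between the series was tested as a difference of differences. A gene's own spread in this test is how far the 2 shRNA pairs differ. The inhibitor-series pair has no replicate and adds nothing to it, so the p-values do not cover variation between series. It was larger in the shRNA series than in the inhibitor series past the test for 4 of 46 members and smaller for 0, where 2.98% of genes passed and 1.51% as larger. These were GMNN with 0.79 ± 0.13 (adjusted p = 0.00944), FEN1 with 0.85 ± 0.16 (adjusted p = 0.0153), ORC6 with 0.90 ± 0.21 (adjusted p = 0.0458) and CLSPN with 1.55 ± 0.36 (adjusted p = 0.0453). Fewer of these 4 passed under other settings, with 0 left when the intensity trend was dropped, 1 when dim genes were kept in and 2 when arrays were centred on the reference genes. DHT minus no DHT was 0.88, 0.78 and 0.03 in the sh-TOP2B, sh-control and inhibitor-series pairs for GMNN. For FEN1 it was 0.92, 0.80 and 0.01 in the sh-TOP2B, sh-control and inhibitor-series pairs. For ORC6 it was 0.82, 0.84 and -0.07 in the sh-TOP2B, sh-control and inhibitor-series pairs. In each of these 3 genes the shRNA pairs were close to each other, and the inhibitor-series pair was near 0. The test favours such genes, because its spread is the gap between the shRNA pairs, so this is no separate support. CLSPN had 1.16 and 1.52 in the sh-TOP2B and sh-control pairs and was dim on both arrays of the inhibitor-series pair, so its fitted difference is no measured size. Over all members the median of this difference was 0.32, and the response was larger in both shRNA pairs than in the inhibitor-series pair in 35 of 46 (76.1%), against 29.7% of genes. The series also differed in transfection, sorting and RNA quality, and these cannot be told apart.

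For most members, deprived cells of the shRNA series did not show the low levels of the inhibitor series. Vehicle levels in sh-control cells exceeded the deprived control of the inhibitor series in 39 of 46 members and were below it in 7. The median difference was 1.38, against 0.20 for all genes, given without a test because the series have 1 array a group. The difference was at least 1 upward in 28 of 46 members (60.9%), against 22.4% of genes, and at least 1 downward in 1, against 11% of genes. It was 4.25 for GINS1, and DTL and UHRF1, which were dim in the deprived control, read 9.28 and 9.38 with vehicle in sh-control cells. The member that was lower by at least 1 was POLD1, with a dim level of 4.85 against 6.95 in the deprived control. In 17 of 46 members (37%) the sh-control vehicle level was above even the steady-state level, against 56.4% of genes, and in 22 it lay between the deprived control and steady state; both shRNA vehicle levels were above steady state in 15 of 46, against 51.6% of genes. The DHT levels of both shRNA pairs were above steady state in 22 of 46 members. For this count, the 22 in between and the 39 above the deprived control, the share of all genes was not counted. These counts alone do not set the members apart. Beta-actin 3' minus 5' was 3.09 on the sh-control vehicle array and 0.47 on the deprived-control array, and RNA quality, transfection and sorting cannot be told apart here.

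**Figure D4:**
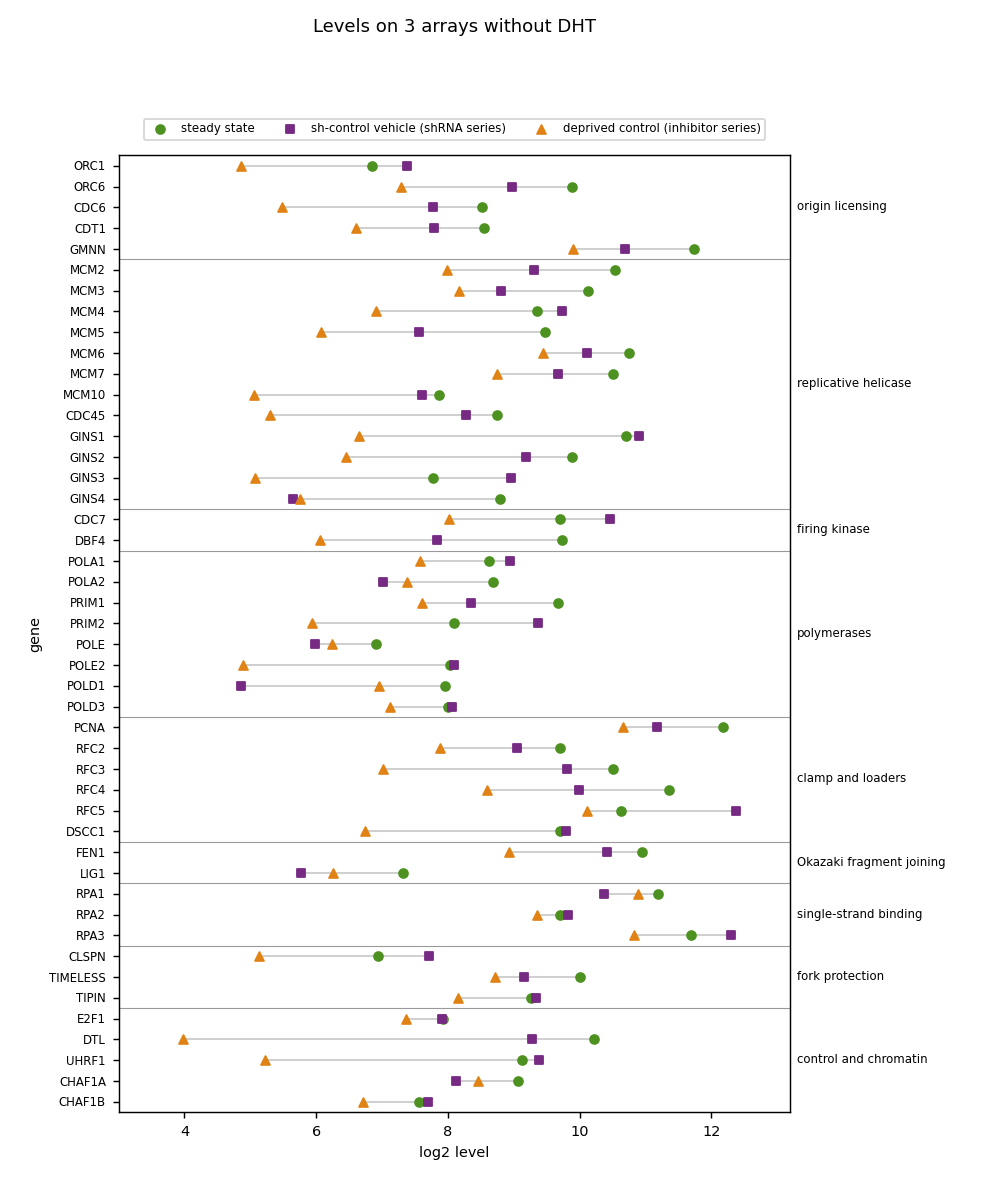
Log2 levels of the 46 members on 3 arrays without DHT: steady state, sh-control vehicle of the shRNA series, and the deprived control of the inhibitor series, joined by a line for each gene. The sh-control vehicle squares lie mostly near the steady-state circles, while GINS4, POLA2, POLE, POLD1, LIG1, RPA1 and CHAF1A have them left of the control triangles.

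The third question was what the topoisomerase II inhibitors did to the replication genes of DHT-treated cells. With etoposide, 37 of 46 members were lower than with DHT alone (80.4%, against 58.6% of genes), with a median of -0.31 against -0.06 for all genes. These values include 7 members dim on both arrays. With dim levels raised the median was -0.23, against -0.05 for all genes. The test was passed by 2 of 46, 1 in each direction, where 1.05% of genes passed, 0.211% as higher and 0.834% as lower. PCNA, the clamp, was 1.17 ± 0.12 higher (adjusted p = 0.0152), reading 11.86 with etoposide and DHT against 10.69 with DHT. GINS1 changed by -1.12 ± 0.18 (adjusted p = 0.0488), reading 5.75 against 6.87, close to the dim level. Neither call held when the sh-control or the sh-TOP2B pair was left out of the fit that gives the spread: the adjusted p was then 0.0845 and 0.0730 for PCNA, and 0.203 and 0.175 for GINS1. An unadjusted p under 0.05 was reached by 16 of the 46 members and by 1732 of 11865 genes.

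The helicase genes had a median of -0.72 with etoposide, or -0.57 with dim levels raised, and 11 of 12 were below DHT. GINS2 was below it by at least 1.16 (adjusted p = 0.0866). MCM3 had -0.94 ± 0.22 (adjusted p = 0.126), MCM2 -0.76 ± 0.17 (adjusted p = 0.122) and MCM6 -0.69 ± 0.17 (adjusted p = 0.151), and MCM5 was below DHT by at least 0.73 (adjusted p = 0.21). MCM4 (-0.23 ± 0.21), MCM7 (-0.14 ± 0.20) and GINS4 (-0.07 ± 0.45) did not pass either, CDC45 was below by at least 0.46, and GINS3 and MCM10 were dim on both arrays. Outside the helicase, DBF4 read -0.73 ± 0.27, DSCC1 -0.68 ± 0.18 and RFC2 -0.63 ± 0.17, none past the test. Above 0 were 9 members, of which PCNA passed; ORC6 (0.45 ± 0.33), LIG1 (0.40 ± 0.30), E2F1 (0.29 ± 0.35), RFC3 (0.23 ± 0.31), RFC5 (0.10 ± 0.12) and TIPIN (0.08 ± 0.20) did not pass, and GINS3 and CLSPN were dim on both arrays. With levels taken as they stand, 5 of 46 members lay at least 1 lower, against 1.42% of genes. Of these GINS1 was measured on both arrays, CDC6 and GINS2 were dim with etoposide, and MCM10 and DTL were dim on both. Centring each array on 11 reference genes shifted all differences by 0.14, after which 32 of 46 members and 9 of 12 helicase genes were below DHT and the members' median was -0.17, against 0.08 for all genes; MCM7 and GINS4 of the helicase turned to above 0.

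**Figure D5:**
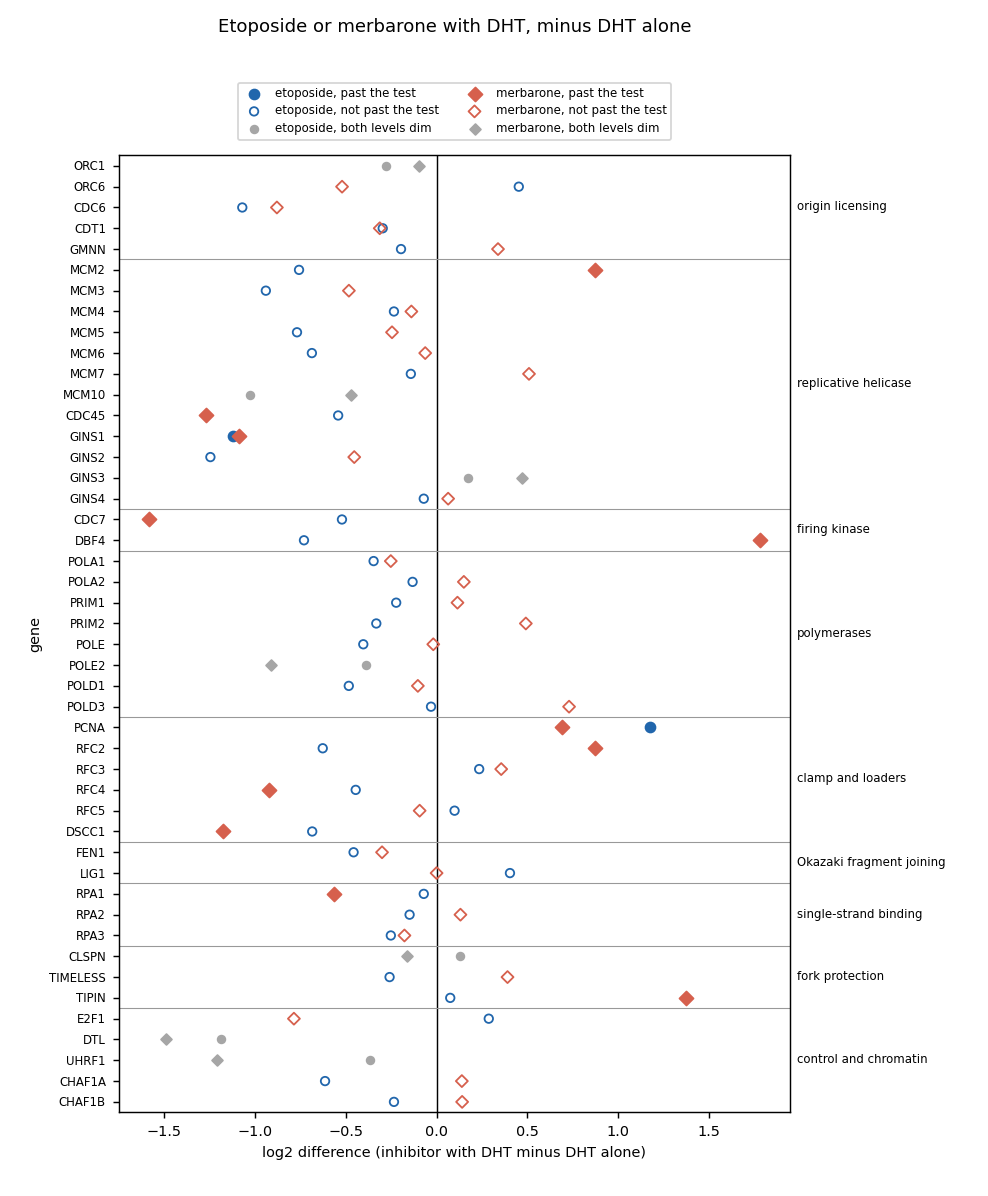
Etoposide with DHT and merbarone with DHT, each minus DHT alone, in log2 for the 46 members, with filled symbols past the test, open ones not past it and grey ones dim on both arrays. DBF4, TIPIN, MCM2 and RFC2 lie right of 0 with merbarone and not past the test with etoposide, and CDC7 lies farthest left with merbarone.

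With merbarone, 14 of 46 members passed (30.4%), near the 31.7% of all genes, so the count itself does not set the members apart. They were 5 higher and 9 lower than DHT, where 15.4% of genes passed as higher and 16.3% as lower, and the members' median was -0.10 against 0.00 for all genes. With dim levels raised it was -0.04, against -0.002 for all genes. The kinase genes moved apart: DBF4 was 1.78 ± 0.27 higher (adjusted p = 0.00394), reading 8.26 with merbarone and DHT against 6.48 with DHT, and CDC7 changed by -1.58 ± 0.16 (adjusted p = 0.001), reading 6.76 against 8.34. The other genes that rose were TIPIN by 1.37 ± 0.20 (adjusted p = 0.00341), RFC2 by 0.87 ± 0.17 (adjusted p = 0.0102), MCM2 by 0.87 ± 0.17 (adjusted p = 0.0105) and PCNA by 0.69 ± 0.12 (adjusted p = 0.00714). Lower past the test were DSCC1 at -1.17 ± 0.18 (adjusted p = 0.00426), GINS1 at -1.09 ± 0.18 (adjusted p = 0.00528), RFC4 at -0.92 ± 0.16 (adjusted p = 0.00619) and RPA1 at -0.57 ± 0.14 (adjusted p = 0.0244). CDC45 fell to a dim level, by at least 0.52, and its adjusted p of 0.00993 is for the unraised difference of -1.27 ± 0.25. POLE2, DTL and UHRF1 passed but were dim on both arrays, so they have no size. Within the clamp loader, which works as 1 complex, RFC2 rose and RFC4 fell, while RFC3 and RFC5 did not pass. Within the MCM ring, MCM2 rose and the 5 others did not pass, from -0.48 for MCM3 to 0.51 for MCM7. A second RFC2 probe set gave 0.93, and a second DSCC1 probe set gave -0.02.

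Centring on the reference genes shifted the merbarone differences by 0.29, and then 8 members passed as higher and 6 as lower, 11 of them among the 14. Before centring 27 of 46 members and 49.8% of genes were below DHT, and after it 17 of 46 members were. The share of all genes after centring was not counted, so the 17 alone do not set the members apart. RPA1, POLE2 and UHRF1 no longer passed under it, and no member that passed turned its direction. Leaving out the sh-control pair gave 12 calls and leaving out the sh-TOP2B pair 11. Of 21 further probe sets not dim on both arrays, 11 had the same sign as the probe set used, and with etoposide 11 of 19 did, so the sign of many inhibitor differences depends on the probe set.

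The inhibitors were compared with each other at the same dose and times. Between etoposide and merbarone 11 of 46 members passed, 3 higher and 8 lower with etoposide, where 32.6% of genes passed, 13.5% as higher and 19.1% as lower. DBF4 was -2.51 ± 0.27 (adjusted p = 0.00136), MCM2 -1.63 ± 0.17 (adjusted p = 0.00135), RFC2 -1.50 ± 0.17 (adjusted p = 0.00169) and TIPIN -1.30 ± 0.20 (adjusted p = 0.00438) with etoposide relative to merbarone. Of the remaining lower genes, TIMELESS had -0.65 ± 0.17, MCM7 -0.65 ± 0.20 and MCM6 -0.62 ± 0.17, and PRIM2 was below merbarone by at least 0.55 (adjusted p = 0.0269, 0.0441, 0.0334 and 0.0408). The adjusted p of PRIM2 is for the unraised difference of -0.82. CDC7 was higher with etoposide by 1.06 ± 0.16 (adjusted p = 0.00418), RPA1 by 0.50 ± 0.14 (adjusted p = 0.0376) and PCNA by 0.48 ± 0.12 (adjusted p = 0.0262). GINS1, which passed as lower than DHT with both, read 5.75 and 5.79, a difference of -0.03 ± 0.18. PCNA and GINS1 were the 2 members that passed with both inhibitors, and these 2 comparisons share the DHT array. The share of all genes that passed with both was not counted, so this overlap does not set the members apart. In the lists beside the members, with etoposide against DHT 0 of 24 replisome genes passed, 1 of 18 S phase genes as higher and 1 as lower, and 6 of 25 mitosis genes as lower; with merbarone 3 replisome genes passed as higher and 1 as lower, 3 S phase genes as higher and 4 as lower, and 10 mitosis genes as lower and 0 as higher. Without the sh-control pair 7 members passed between the inhibitors, and without the sh-TOP2B pair 5.

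The last question was whether lowering TOP2B moved the replication genes. Between sh-TOP2B and sh-control cells, taken over the vehicle and DHT arrays, 0 of 46 members passed in limma, 0 had an unadjusted p under 0.05, and the differences ran from -0.33 to 0.38 with a median of -0.09, against -0.03 for all genes. Of all genes 1.05% passed, all of them as higher, and 832 had an unadjusted p under 0.05. The ends of that range were ORC1 (-0.33) and CHAF1B (0.38). In 24 of 46 members both sh-TOP2B levels were below their sh-control counterparts, and in 4 both were above. The share of all genes was not counted for this. Taken over both arrays, 31 of 46 members and 6823 of 11865 genes were lower in sh-TOP2B cells. For the DHT response in sh-TOP2B cells minus that in sh-control cells, 0 of 46 members and 0 of 11865 genes (0%) passed in limma, with an unadjusted p under 0.05 for 0 members and 147 genes, and the members ran from -0.54 to 0.41 with a median of -0.01. The spread of this last test came from how far the inhibitor-series and sh-control pairs differ in DHT response, with member medians of 0.05 and 0.45. A difference between the series therefore widens it. With 2 arrays for each vector, a p that misses the threshold does not show that the levels or the responses were alike.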

How the data were processed

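Total RNA of 9 LNCaP samples, 1 per group, was hybridised to Affymetrix arrays with 54675 probe sets. The deposited log2 values were made by the authors with RMA, per the submitters' processing notes, which give no version; RMA corrects background, scales arrays to 1 distribution and summarises probes, so differences shared by all genes are removed. Arrays have no read depth, and their number limits the precision. For the present report, genes with 1 annotated symbol (19775) were each read from the probe set with the highest mean, and genes under the 40th percentile of mean level were left out, which kept 11865. In limma 3.58.1 (R 4.3.3) all 9 arrays entered an additive fit with 7 terms (3 backgrounds, DHT, steady state, etoposide, merbarone) and an intensity trend, which leaves 2 residual and 4.62 prior degrees of freedom. A lone array was set directly against its reference array, with an SE of the square root of 2 times the moderated SD, assuming that lone arrays vary like the pairs. Interactions had 1 residual degree of freedom. For the knockdown it came from the inhibitor-series and sh-control pairs, and for the series from the 2 shRNA pairs. Tests were two-sided and adjusted by Benjamini-Hochberg over 11865 genes, threshold 0.05. No label names separate cultures, so a p-value here covers the spread between the samples at hand, which may be technical. Values on every array are given for each member that passed a test or differed by at least 1 and for the 2 widest-ranging members of each role. The members and lists were chosen with earlier results of these data known. The alternatives tried were no trend, no filter on dim genes, the median over probe sets, centring on 11 reference genes, leaving out a pair, and reference levels fitted from all pairs.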

Additional observations from a re-analysis of the deposited data

Results flagged for a closer look

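The DHT response differed between the series past the test for 4 members. The response over both shRNA pairs minus that of the inhibitor-series pair was 1.55 for CLSPN, 0.90 for ORC6, 0.85 for FEN1 and 0.79 for GMNN on the log2 scale, with limma adjusted p-values of 0.0453, 0.0458, 0.0153 and 0.00944 in that order. The difference was larger than 0 in 40 of 46 members and in 5088 of 11865 genes. An unadjusted p under 0.05 was reached by 18 of 46 members and by 1793 of 11865 genes. CLSPN was dim on both arrays of the inhibitor-series pair, so its size is not a measured one. The spread in this test is that between the 2 shRNA pairs, and the inhibitor-series pair has no replicate. The series also differ in RNA quality, transfection and sorting, whose part was not tested. Without an intensity trend 0 of the 4 passed, without the filter on dim genes 1, and with arrays centred on reference genes 2.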

How the results depend on the processing

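The pair of arrays with and without DHT from each background stands as a block in every fit. The steady-state counts of members stayed at 34 to 43 against the deprived control and 34 to 42 against DHT (39 each as reported), and the merbarone count stayed at 11 to 17 (14 as reported). Over 3 pairs, the DHT count of 1 member became 0 when the intensity trend or the filter on dim genes was dropped and with the median over probe sets, and ran from 0 to 30 when a pair was left out; 30 came from the shRNA arrays alone. The etoposide count of 2 was 0 without the trend, 1 without the filter, 1 with centred arrays, 4 with reference levels fitted from all pairs and 0 without either shRNA pair. The count of 11 between the inhibitors was 6 without the trend, 7 without the filter and 5 to 7 with a pair left out. The 4 members whose DHT response differed between the series became 0, 1 and 2 without the trend, without the filter and with centred arrays. For TOP2B knockdown the counts were 0 throughout. Over all genes, the 53 DHT calls became 5, 20 and 35 without the trend, without the filter and with the median over probe sets, and 2627, 1 and 9 without the inhibitor, sh-control and sh-TOP2B pair. The 124 etoposide calls became 0, 56, 76 and 232 without the trend, without the filter, with centred arrays and with fitted reference levels, and 0 and 29 without the sh-control and sh-TOP2B pair. The 2946 calls of steady state against DHT fell to 1918 without the sh-TOP2B pair. The 124 knockdown calls became 81 without the trend and 315 without the inhibitor series, and the 353 calls between the series became 0, 148 and 178 without the trend, without the filter and with centred arrays. Centring changed the share of calls that were higher to 70.3% (55.7% as reported) for steady state against control, 69.6% (54.2%) against DHT, 39.5% (20.2%) for etoposide, 75.1% (48.5%) for merbarone, 28.5% (41.4%) between the inhibitors and 65.2% (50.7%) between the series. No named member turned its direction in a comparison that it passed, and the causes of these changes were not tested. Under the median over probe sets 44 members were tested. Dim levels limit the sizes given for 14 members.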
